A study of Mus musculus with 12 samples.

Results

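Innate lymphoid cell type 2 (ILC2) genes were read here as a set of 9 named genes, *Gata3*, *Rora*, *Nfil3*, *Zbtb16*, *Tox*, *Il1rl1*, *Il18r1*, *Il2ra*, and *Icos*, found by symbol among the 47643 genes of the expression table. All 9 were found, and all 9 passed the filter for testing, a mean of at least 1 TPM (transcripts per gene length on one common library total) over the 12 libraries, which 14479 genes passed in all. The cells were common lymphoid progenitors (CLPs), the bone marrow cells that give rise to lymphocytes, sorted from male mice between 27 and 32 weeks of age, with 1 RNA-seq library per mouse. There were 4 wild-type (WT) mice, 4 ∆*Firre* mice, and 4 *Firre* rescue mice. ∆*Firre* mice lack the gene body and promoter of the X-linked long noncoding RNA *Firre* in all cells, since the floxed allele was deleted with CMV-Cre and the Cre was then bred out, with a backcross to C57BL/6J. The *Firre* rescue mice carry the same deletion together with a *Firre* cDNA under a tet-responsive element and a CAG-driven rtTA3, and were fed doxycycline. The transgene is thus driven in whatever cells express rtTA3 and not from the locus itself, and the methods of the study name no transgene for the WT and ∆*Firre* mice and a regular chow for mice in general. Per-library values below follow the replicate labels, 6, 8, 10, and 11 for WT, 8, 9, 11, and 12 for ∆*Firre*, and 1 to 4 for *Firre* rescue.

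ILC2s are tissue lymphocytes without antigen receptors that respond to epithelial alarm cytokines such as IL-33 and release type 2 cytokines such as IL-5 and IL-13. They descend from CLPs through precursors in which NFIL3, TOX, and TCF-1 come first, PLZF (encoded by *Zbtb16*) marks the committed precursor, and GATA3, RORα, and Bcl11b set the type 2 program. Mature cells carry the IL-33 receptor ST2, the IL-18 receptor, the IL-2 receptor alpha chain, and ICOS. None of these genes is restricted to ILC2s. T cells, natural killer (NK) cells, or basophils express several of them.

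Recovered reads per library ranged from 10989666 to 18173574 in WT, from 14369666 to 17595547 in ∆*Firre*, and from 25780777 to 32572000 in *Firre* rescue. Genes above 0 numbered 15472 to 19877 in WT, 17910 to 19098 in ∆*Firre*, and 15140 to 16835 in *Firre* rescue, so the deeper rescue libraries held fewer detected genes than every ∆*Firre* library, and the part of this in the falls and in the genes listed at 0 was not tested. *Firre* itself measured 28.4 ± 3.05 TPM in WT (mean ± SD, n = 4), 0 TPM in every ∆*Firre* library, and 108 ± 56.1 TPM in *Firre* rescue. The CLP genes *Il7r* (353 to 525 TPM), *Flt3* (506 to 709 TPM), and *Dntt* (4315 to 6725 TPM) were abundant in all 12 libraries. Among T cell markers, *Cd3e* stayed at or under 0.732, *Cd3d* at or under 2.97, *Cd4* at or under 10.1, and *Cd3g* at or under 11.2 TPM, while *Zap70* and *Lat*, which NK cells also express, reached 16.4 and 57.9 TPM. The library numbers of the rescue mice form a range of their own, so the transgene, the doxycycline diet, the deeper sequencing, and the library number range cannot be told apart in any comparison with that group. Genes were compared on the log2(TPM + 1) scale with limma over all tested genes, which understates the change of low genes, and a gene was called where its p, adjusted by Benjamini-Hochberg, was at most 0.1. Fold changes and adjusted p-values below come from that fit unless another setting or a left-out library is named.

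In WT CLPs the 9 genes spanned low to high levels. On the per-length TPM scale, *Il18r1* was highest at 151 ± 27.9, above 92.7% of the genes tested, followed by *Nfil3* at 62.1 ± 5.50, *Tox* at 35.7 ± 7.46, *Icos* at 29.3 ± 5.64, *Gata3* at 25.9 ± 6.97, and *Rora* at 19.8 ± 5.19. *Il1rl1* (16.7 ± 12.1) and *Zbtb16* (14.4 ± 5.13) came next, and *Il2ra* was lowest at 3.74 ± 1.51, above 18.7% of the genes tested. *Il18r1* and *Nfil3* each stood above the range of the next gene in every WT library, whereas from *Tox* down to *Zbtb16* the ranges of neighboring genes overlapped, and *Il2ra* was under *Zbtb16* in every WT library. The spread within WT differed between genes, with a coefficient of variation of 8.85% for *Nfil3* and of 72.4% for *Il1rl1*. Between 50 and 4840 reads stood behind each value, with *Il2ra* (50 to 355 reads) the least deeply read. The effector cytokines of mature ILC2s differed in level. In WT, *Il4* ran from 0 to 22.5 TPM and *Csf2*, which encodes GM-CSF, from 0.355 to 9.51 TPM. *Il9* and the amphiregulin gene *Areg* were listed at 0 in all 12 libraries, *Il5* stayed at or under 1.63 TPM, and *Il13* was above 0 in 1 library, at 0.175 TPM.

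**Figure D1:**
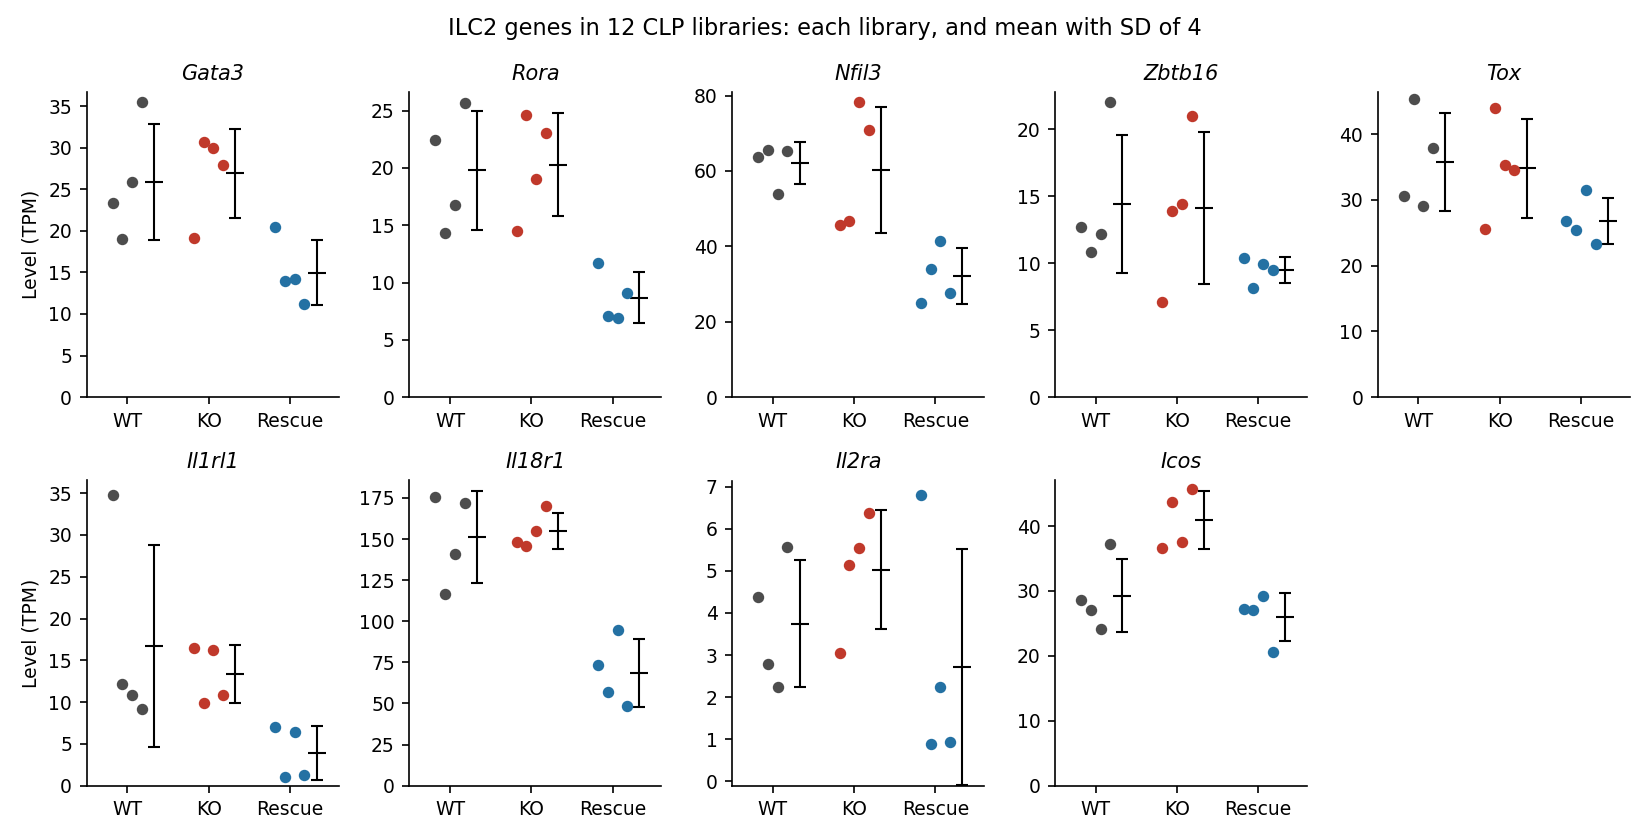
Level in TPM (vertical axis, linear) of each of the 9 genes in WT, KO (∆*Firre*), and *Firre* rescue libraries. Each point is 1 library, and the bar beside each group gives the mean with the SD of 4 libraries. The rescue points of *Rora*, *Nfil3*, *Il1rl1*, and *Il18r1* lie under all WT and KO points, those of *Tox* overlap both other groups, and those of *Il2ra* lie on both sides, replicate 1 above all WT and KO points and the other 3 under them.

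The first comparison asked whether deletion of the *Firre* locus changed these genes in CLPs. Between ∆*Firre* and WT, 0 of the 9 genes were called, beside 0.0207% of all genes tested (3 of 14479), and 0 of the 9 had groups that did not overlap, beside 5.33% of all genes. Estimates were higher in ∆*Firre* for 5 genes and lower for 4, with a median log2 fold change of 0.042 against −0.058 over all genes. At an unadjusted p under 0.05 there was 1 gene, *Icos*, where 5.3% of all genes passed, and limma-voom on the recovered reads also called 0. *Icos*, which encodes a costimulatory receptor, measured 28.6, 27.1, 24.1, and 37.3 TPM in WT and 36.6, 43.7, 37.6, and 45.8 TPM in ∆*Firre*. The highest WT library, replicate 11, was above the lowest ∆*Firre* library, so the groups overlapped. The log2 fold change was 0.48 ± 0.15 (SE, adjusted p = 0.889), and within the 2 library number ranges that hold 2 mice of each genotype it was 0.22 and 0.75. The study, which tested read counts with DESeq2 at an FDR of 0.1, reported *Icos* as significantly higher in ∆*Firre* CLPs and reduced in rescue CLPs. That procedure was not among the settings tried here.

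For the remaining genes the intervals show how large a change the 4 mice per group leave possible. The 95% intervals of the log2 fold change were narrowest for *Icos* (0.15 to 0.81), *Tox* (−0.43 to 0.35), *Il18r1* (−0.35 to 0.45), *Nfil3* (−0.50 to 0.35), and *Gata3* (−0.42 to 0.55). They were widest for *Il1rl1* (−1.22 to 0.96) and *Il2ra* (−0.59 to 1.32). Levels of *Gata3* were nearly the same on average, 25.9 ± 6.97 TPM in WT and 26.9 ± 5.36 TPM in ∆*Firre*. The sign of the *Il1rl1* estimate, −0.13, rested on WT replicate 6, and without that library it was 0.27.

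The second question was whether expression of *Firre* RNA from the transgene moved these genes. *Firre* rescue mice were set against ∆*Firre* mice, which share the deletion, and against WT mice, and both comparisons use the same 4 rescue libraries. Against ∆*Firre*, 6 of 9 genes fell and none rose, beside 19.3% of all genes tested that were called lower and 27.9% called in either direction. The 6 were *Gata3*, *Rora*, *Nfil3*, *Il1rl1*, *Il18r1*, and *Icos*. Against WT, 5 of 9 fell and none rose, beside 19.4% called lower and 24.3% called in either direction, and *Icos* was the gene of the 6 that was not called there. The background moved with the scaling. With the median ratio, 1875 genes in place of 2801 were called lower against ∆*Firre* and 1256 in place of 2814 against WT, beside 6 and 4 of the 9 genes. The estimates of all 9 genes were under 0 in both comparisons, with medians of −0.879 against ∆*Firre* and −0.751 against WT, where the medians of all genes were −0.161 and −0.208. In each comparison 5 of the 9 genes were lower with no overlap between the groups, beside 15.6% of all genes against ∆*Firre* and 14.5% against WT. In CLP RNA, fewer cells of a type and less RNA per cell cannot be told apart. A further setting, the empirical null, rescaled the test statistics by a spread taken from the upper quartile of their own absolute values. The spread was 2.01 against ∆*Firre* and 1.93 against WT. There, 0 of the 9 genes were called in either comparison, as were 0 of all genes. In the main fit 27.9% and 24.3% of all genes were called, so called genes reached or neared that quartile. The count of 0 therefore cannot decide whether the 9 genes changed. That setting was chosen after seeing the data.

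**Figure D2:**
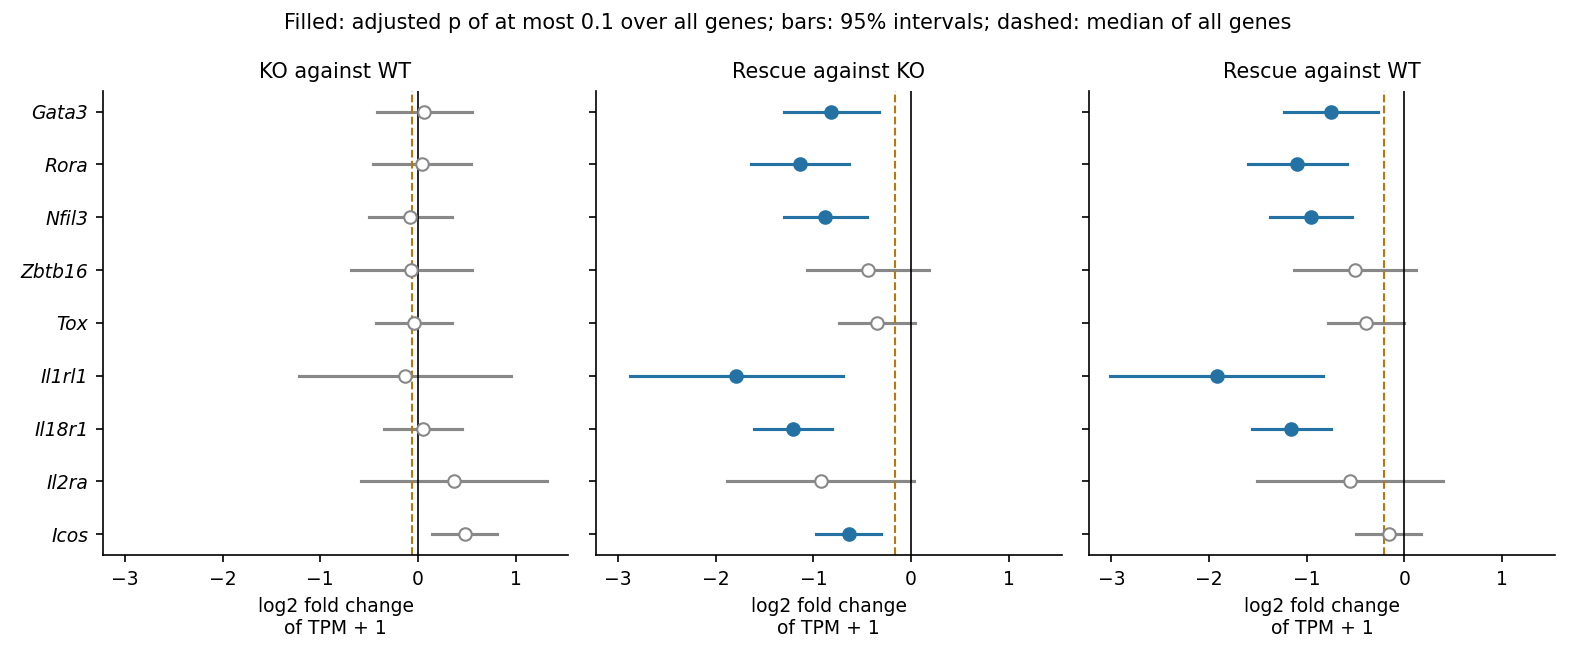
Log2 fold change of TPM + 1 (horizontal axis) of the 9 genes in the 3 comparisons. Circles are estimates, filled where the adjusted p over all genes was at most 0.1, bars are 95% intervals, and the dashed line is the median of all genes tested. No circle is filled for KO (∆*Firre*) against WT, 6 are filled for *Firre* rescue against KO, and 5 for *Firre* rescue against WT, all left of the dashed line.

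Among the transcription factors, 3 of 5 fell in both comparisons. *Gata3*, the master regulator of type 2 lymphocytes (GRCm38 chr2:9857078-9887953), measured 23.3, 19.0, 25.9, and 35.5 TPM in WT, 19.1, 30.7, 30.0, and 28.0 in ∆*Firre*, and 20.4, 14.0, 14.2, and 11.2 TPM in *Firre* rescue. Of the rescue libraries 3 were under every other library, while replicate 1 lay within both other groups. *Gata3* was 0.555 times the ∆*Firre* mean (log2 fold change −0.82 ± 0.22, adjusted p = 0.0246) and 0.577 times the WT mean (−0.75 ± 0.22, adjusted p = 0.0387). The call against WT was lost without WT replicate 11 (adjusted p = 0.108), without rescue replicate 4 (adjusted p = 0.1002), with the median ratio as scaling (log2 fold change −0.57, adjusted p = 0.122), and with quantile normalization (adjusted p = 0.138).

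*Rora*, which encodes the nuclear receptor RORα needed for ILC2 development (chr9:68653404-69388246), measured 22.4, 14.3, 16.8, and 25.7 TPM in WT and 14.5, 24.6, 19.0, and 23.0 TPM in ∆*Firre*. In *Firre* rescue it measured 11.7, 7.05, 6.89, and 9.10 TPM, under every library of the other groups. The log2 fold change was −1.14 ± 0.23 against ∆*Firre* (adjusted p = 0.00634) and −1.10 ± 0.23 against WT (adjusted p = 0.00865). *Nfil3*, a basic leucine zipper factor required for early innate lymphoid precursors (chr13:52967209-52982878), was steady in WT at 63.6, 65.5, 53.9, and 65.2 TPM and ranged from 45.7 to 78.3 TPM in ∆*Firre*. Its rescue libraries held 24.8, 34.1, 41.5, and 27.7 TPM, again with no overlap. The log2 fold change was −0.88 ± 0.20 against ∆*Firre* (adjusted p = 0.00966) and −0.96 ± 0.20 against WT (adjusted p = 0.00730).

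*Zbtb16* and *Tox* did not pass the test in either comparison. *Zbtb16* (chr9:48651797-48836225) measured 12.7, 10.8, 12.2, and 22.0 TPM in WT, 7.08, 13.9, 14.4, and 21.0 in ∆*Firre*, and 10.4, 8.16, 9.97, and 9.47 TPM in *Firre* rescue. The rescue libraries lay under all WT libraries but above ∆*Firre* replicate 8. Its log2 fold change was −0.44 ± 0.29 against ∆*Firre* (adjusted p = 0.304) and −0.51 ± 0.29 against WT (adjusted p = 0.249). With 1 library left out these ran from −0.71 to −0.23 and from −0.62 to −0.30. *Tox*, a high-mobility-group factor of early lymphoid precursors (chr4:6686353-6991557), ranged from 29.1 to 45.3 TPM in WT, from 25.6 to 43.9 in ∆*Firre*, and from 23.3 to 31.6 TPM in *Firre* rescue. Its log2 fold changes were −0.35 ± 0.18 (adjusted p = 0.192) and −0.39 ± 0.18 (adjusted p = 0.159), and with 1 library left out −0.49 to −0.23 and −0.48 to −0.27. Without ∆*Firre* replicate 8, in which *Zbtb16* and *Tox* were lowest of that group, both genes were called lower in *Firre* rescue than in ∆*Firre* (adjusted p = 0.0779 for *Zbtb16* and 0.0858 for *Tox*). *Gata3*, *Rora*, *Zbtb16*, *Tox*, and *Il2ra* overlap 1 or more other annotated genes, and the strand setting of the counting is not given in the sources used here.

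The alarm cytokine receptors included the gene with the largest estimated fall of the 9, *Il1rl1*, which encodes the ST2 chain of the IL-33 receptor (chr1:40404864-40465418). It measured 34.8, 12.2, 10.8, and 9.18 TPM in WT, 16.5, 9.89, 16.3, and 10.9 in ∆*Firre*, and 7.03, 1.05, 6.46, and 1.23 TPM in *Firre* rescue. The rescue libraries were under all others, 2 of them near 1 TPM, and WT replicate 6 stood far above the other WT libraries. The log2 fold change was −1.79 ± 0.50 against ∆*Firre* (adjusted p = 0.0275) and −1.92 ± 0.50 against WT (adjusted p = 0.0224). Over the libraries left out in turn the latter ran from −2.25 to −1.52.

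RefSeq (GRCm38.p6) gives 2 starts of *Il1rl1* with promoter entries, both inside the span of the gene and both on the plus strand. The 250 bases before each are shown because this gene had the largest estimated fall, and they were searched for letters that GATA factors bind, GATAA or GATAG on either strand, whose reverse complements are TTATC and CTATC. Matches are in capitals.

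*Il1rl1* distal start, chr1:40429320-40429569: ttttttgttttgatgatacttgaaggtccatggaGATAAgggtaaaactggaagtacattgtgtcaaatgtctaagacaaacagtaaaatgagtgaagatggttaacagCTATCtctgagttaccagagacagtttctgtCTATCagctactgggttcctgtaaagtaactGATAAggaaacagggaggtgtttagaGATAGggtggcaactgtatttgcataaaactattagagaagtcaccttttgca

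*Il1rl1* proximal start, chr1:40439379-40439628: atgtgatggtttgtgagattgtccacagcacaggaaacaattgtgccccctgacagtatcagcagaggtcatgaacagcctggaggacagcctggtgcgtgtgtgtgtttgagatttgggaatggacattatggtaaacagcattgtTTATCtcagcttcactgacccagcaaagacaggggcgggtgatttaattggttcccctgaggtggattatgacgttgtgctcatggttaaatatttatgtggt

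The distal window holds 5 matches and the proximal window 1. Of the 32851 promoter windows of the same length in the table, 37.4% hold at least 1 match and 0.119% (39 windows) hold at least 5. The tables matched 6 of the 9 genes, with 9 windows, and among the other genes the *Rora* window holds 1 match and the windows of *Gata3*, *Nfil3*, *Il2ra*, and *Il18r1* hold 0. A match describes these letters in this window and is not a binding site, binding was not measured, and the genes that fell include *Gata3* and *Nfil3*, without one, and *Rora*, with one.

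*Il18r1*, the ligand-binding chain of the IL-18 receptor (chr1:40465552-40500854), starts 133 bases after the end of *Il1rl1*. It measured 176, 117, 141, and 172 TPM in WT and 148, 146, 155, and 170.3 TPM in ∆*Firre*. In *Firre* rescue it measured 73.7, 56.9, 94.97, and 48.5 TPM, with a gap to the lowest WT library. It had the smallest adjusted p of the 9 genes in both comparisons, with a log2 fold change of −1.21 ± 0.19 against ∆*Firre* (adjusted p = 0.00129) and −1.16 ± 0.19 against WT (adjusted p = 0.00210).

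*Il1rl1* and *Il18r1* lie in a cluster of 6 related receptor genes on chromosome 1, in the order *Il1r2*, *Il1r1*, *Il1rl2*, *Il1rl1*, *Il18r1*, and *Il18rap*. Against ∆*Firre* 3 of the 6 fell, and against WT 4 of 6 fell, with none higher. *Il18rap*, the signaling chain of the IL-18 receptor, measured 207 ± 26.1 TPM in WT, 237 ± 22.1 in ∆*Firre*, and 143 ± 23.6 TPM in *Firre* rescue, a log2 fold change of −0.73 ± 0.13 (adjusted p = 0.00258) and −0.54 ± 0.13 (adjusted p = 0.0139). *Il1r1*, the IL-1 receptor, measured 59.6 ± 16.5, 53.9 ± 5.21, and 40.2 ± 6.62 TPM in the same order. It was called against WT (−0.54 ± 0.18, adjusted p = 0.0547) and not against ∆*Firre* (−0.42 ± 0.18, adjusted p = 0.108). The call against WT, and with it the count of 4, was lost under 10 of 26 alternatives, among them the median ratio (−0.35, adjusted p = 0.214), quantile normalization (adjusted p = 0.187), correction for GC content (adjusted p = 0.137), limma-voom (adjusted p = 0.109), 2 groups in the fit (adjusted p = 0.130), no filter (adjusted p = 0.1003), and leaving out WT replicate 8 (adjusted p = 0.118) or rescue replicate 4 (adjusted p = 0.138). Against ∆*Firre* the gene was called with 2 groups in the fit (adjusted p = 0.0761), with a mean of at least 5 TPM (adjusted p = 0.0952), and without WT replicate 8 (adjusted p = 0.0450) or rescue replicate 3 (adjusted p = 0.0941). The decoy receptor gene *Il1r2* (−0.41 ± 0.45 and −0.37 ± 0.45) and the IL-36 receptor gene *Il1rl2* (−0.21 ± 0.24 and 0.15 ± 0.24) did not pass either test, and without rescue replicate 4 the estimates of *Il1r2* were −0.031 and 0.010. *Il1rl1* thus had the largest estimated fold change of the cluster and the 3 genes at the *Il18rap* end fell in both comparisons.

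*Il2ra*, the alpha chain of the IL-2 receptor (chr2:11642792-11693194), was low and uneven in the rescue group, at 6.80, 0.895, 2.23, and 0.929 TPM, beside 4.38, 2.79, 2.24, and 5.56 TPM in WT and 3.05, 5.14, 5.55, and 6.38 TPM in ∆*Firre*. Rescue replicate 1 had the highest level of all 12 libraries and rescue replicates 2 and 4 the lowest. The log2 fold change was −0.93 ± 0.44 against ∆*Firre* (adjusted p = 0.161) and −0.56 ± 0.44 against WT (adjusted p = 0.415). Without rescue replicate 1 the gene was called in both comparisons (−1.37, adjusted p = 0.0250, and −1.002, adjusted p = 0.0826), and limma-voom called it against ∆*Firre* (adjusted p = 0.0611). With 1 library left out the estimates ran from −1.37 to −0.69 and from −1.002 to −0.32.

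*Icos* (chr1:60960773-61000322) measured 27.2, 27.01, 29.2, and 20.6 TPM in *Firre* rescue, under every ∆*Firre* library. Of these, 3 lay within the range of WT and replicate 4 lay under it. It fell against ∆*Firre* (log2 fold change −0.64 ± 0.15, adjusted p = 0.0138), and against WT its log2 fold change was −0.16 ± 0.15 (adjusted p = 0.508, 95% interval −0.49 to 0.17). After correction for GC content the change against ∆*Firre* was −0.40 (adjusted p = 0.115), and against WT it was 0.024 with the median ratio as scaling.

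The chains that pair with these receptors moved the same way. Of 7 tested partner chains and ligands, 4 fell and none rose in each comparison, *Il1rap*, *Il18rap*, *Il2rb*, and *Il2rg*. *Il1rap*, the chain that signals with ST2, measured 7.88 ± 2.50 TPM in WT, 9.95 ± 1.04 in ∆*Firre*, and 3.57 ± 0.499 TPM in *Firre* rescue (log2 fold change −1.26 ± 0.22, adjusted p = 0.00270, and −0.93 ± 0.22, adjusted p = 0.0147). *Il2rb*, the beta chain shared by the IL-2 and IL-15 receptors, measured 101 ± 42.6, 87.3 ± 19.4, and 38.6 ± 19.3 TPM (−1.24 ± 0.32, adjusted p = 0.0190, and −1.39 ± 0.32, adjusted p = 0.0129). *Il2rg*, the common gamma chain, fell less, from 131 ± 13.9 and 117 ± 13.3 to 90.2 ± 15.2 TPM (−0.38 ± 0.12, adjusted p = 0.0507, and −0.55 ± 0.12, adjusted p = 0.0122). Its call against ∆*Firre* was lost without ∆*Firre* replicate 9 or 12 or rescue replicate 2 or 4 (adjusted p from 0.102 to 0.139) with the median ratio (adjusted p = 0.186), with quantile normalization (adjusted p = 0.106), and after the GC correction (adjusted p = 0.211). Of the ligands, *Il33* stayed at or under 0.557 TPM in all libraries.

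Other transcription factors of innate lymphoid precursors and ILC2s fell too, 6 of 12 against ∆*Firre* and 7 of 12 against WT, with none higher. The medians of that list were −0.586 and −0.773. *Ikzf2*, which encodes Helios, fell from 24.0 ± 6.97 TPM in WT and 24.9 ± 2.36 TPM in ∆*Firre* to 8.09 ± 1.53 TPM (−1.52 ± 0.20, adjusted p = 0.000488, and −1.43 ± 0.20, adjusted p = 0.000916). *Maf*, a leucine zipper factor, fell from 12.5 ± 3.23 and 13.0 ± 3.24 to 5.07 ± 1.09 TPM (−1.20 ± 0.24, adjusted p = 0.00615, and −1.13 ± 0.24, adjusted p = 0.00914). *Bcl11b*, needed by both T cells and ILC2s, fell from 9.17 ± 1.78 and 7.38 ± 1.55 to 3.12 ± 0.954 TPM (−1.04 ± 0.25, adjusted p = 0.0130, and −1.32 ± 0.25, adjusted p = 0.00450). *Rxrg*, a retinoid X receptor, was at 1.61 ± 1.59 TPM in *Firre* rescue beside 4.99 ± 0.892 TPM in ∆*Firre* and 5.69 ± 2.41 TPM in WT (adjusted p = 0.0445 and 0.0384), and its call against ∆*Firre* was lost without ∆*Firre* replicate 11 (adjusted p = 0.105) and that against WT with 2 groups in the fit (adjusted p = 0.110). *Zbtb7b*, a zinc finger factor, was called against WT (−1.36 ± 0.31, adjusted p = 0.0111), with −0.68 ± 0.31 against ∆*Firre* (adjusted p = 0.140). Against ∆*Firre* it was called after the GC correction (−1.18, adjusted p = 0.0147), with no trend (adjusted p = 0.0798), with 2 groups in the fit (adjusted p = 0.0986), and without rescue replicate 3 (adjusted p = 0.0934).

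Of 15 tested surface receptors of ILC2s that are not among the 9 genes, 9 fell and 2 rose against ∆*Firre*, and 5 fell and 1 rose against WT. The receptor that rose in both was *Il9r*, the IL-9 receptor, from 0.758 ± 0.420 TPM in WT and 0.927 ± 0.598 TPM in ∆*Firre* to 7.01 ± 2.43 TPM in *Firre* rescue (2.04 ± 0.37, adjusted p = 0.00347, and 2.16 ± 0.37, adjusted p = 0.00300). The other that rose against ∆*Firre* was *Crlf2*, from 27.6 ± 3.67 to 46.2 ± 8.98 TPM with no overlap (0.71 ± 0.19, adjusted p = 0.0246). Against WT *Crlf2* was not called (0.45 ± 0.19, adjusted p = 0.136). The chemokine receptor gene *Cxcr6* fell from 39.9 ± 18.2 and 45.8 ± 19.4 to 11.7 ± 7.95 TPM (−2.04 ± 0.46, adjusted p = 0.0108, and −1.81 ± 0.46, adjusted p = 0.0208). *Pdcd1*, which encodes PD-1, fell from 17.4 ± 5.72 and 16.6 ± 4.31 to 7.65 ± 4.18 TPM (−1.10 ± 0.32, adjusted p = 0.0309, and −1.15 ± 0.32, adjusted p = 0.0286). Its call against WT was lost with quantile normalization (−0.86, adjusted p = 0.119). *Nmur1*, the neuromedin U receptor, was listed at 0 in all rescue libraries, from 0.252 to 4.73 in ∆*Firre*, and from 0 to 2.63 TPM in WT. It was called against ∆*Firre* only (adjusted p = 0.0663), and that call was lost without ∆*Firre* replicate 8, 11, or 12 or rescue replicate 1 or 4 (adjusted p from 0.101 to 0.164). Among effector products 1 of 4 tested genes was called, *Il4*, listed at 0 in all rescue libraries and from 2.58 to 8.99 TPM in ∆*Firre* (adjusted p = 0.0286). In WT *Il4* ran from 0 to 22.5 TPM (adjusted p = 0.0538), and the call against WT was lost without WT replicate 6 (adjusted p = 0.120) or 10 (adjusted p = 0.122) and with 2 groups in the fit (adjusted p = 0.123).

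**Figure D3:**
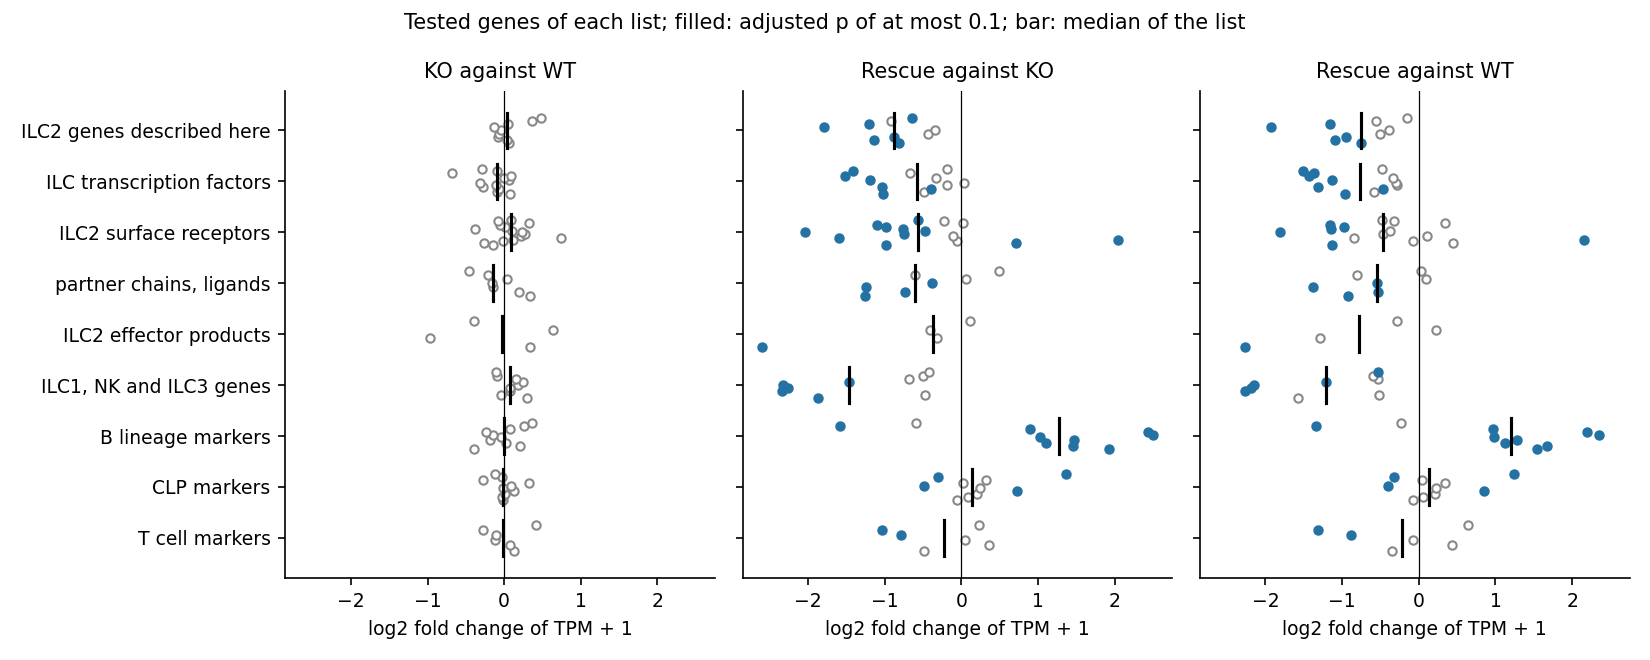
Log2 fold change of TPM + 1 (horizontal axis) of every tested gene of each list (rows) in the 3 comparisons, filled where the adjusted p over all genes was at most 0.1, with a bar at the median of the list. For the 9 genes described here the bar stands at 0.042, −0.879, and −0.751 from left to right, and the medians of the B lineage markers lie on the other side of 0 in both comparisons with *Firre* rescue, at 1.278 and 1.204, with 8 of the 10 markers there.

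Genes of the sister lineages fell as well. Of 9 tested genes of ILC1s, NK cells, and ILC3s, 5 fell and none rose in each comparison, with list medians of −1.463 and −1.215. The 5 were not the same genes in both. *Il1r1* was among them against WT only, and that call was lost under 10 of 26 alternatives. *Ncr1*, which encodes the NK receptor NKp46, measured 171 ± 99.7 TPM in WT, 160.4 ± 48.6 in ∆*Firre*, and 30.7 ± 8.18 TPM in *Firre* rescue (−2.34 ± 0.38, adjusted p = 0.00188, and −2.26 ± 0.38, adjusted p = 0.00273). The NK receptor genes *Klrb1c* (−2.27 ± 0.34 and −2.19 ± 0.34) and *Klrb1b* (−2.33 ± 0.43 and −2.15 ± 0.43) fell in both as well, and *Il22* and *Il17a* were listed at 0 in all libraries. The sort took Lin- Sca1lo cKitlo IL7Rα+ cells, and the share of NK cells or basophils among the sorted cells is not given in the sources used here. NK cells also express *Il18r1*, *Il2rb*, and *Nfil3*, and the part of these cells in the falls of those genes was not tested.

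Markers of other cell types also differed between the rescue and the other libraries. All 8 tested basophil and mast cell markers fell in both comparisons, and of the 2 listed genes that were not tested *Cma1* was at 0 in all libraries. The summed level of that list was 9241 TPM in WT replicate 6 and 1084 to 2835 TPM in the other WT libraries, 4383, 3288, 3041, and 2968 in ∆*Firre*, and 111, 142.5, 94.4, and 64.5 TPM in *Firre* rescue. *Ms4a2* and *Fcer1a*, the IgE receptor chains, were listed at 0 in 3 of 4 rescue libraries and at 0.128 and 6.11 TPM in replicate 2, and the protease gene *Prss34*, at 448 to 4026 TPM in WT and 1372 to 1939 TPM in ∆*Firre*, was at 0 to 23.8 TPM in *Firre* rescue. *Gata2*, a GATA factor gene of the same list, measured 20.8 to 178 TPM in WT, 28.9 to 48.6 in ∆*Firre*, and 0 to 0.565 TPM in *Firre* rescue. Basophils and mast cells express *Il1rl1*, *Il18r1*, and *Il4*. WT replicate 6 and ∆*Firre* replicate 8 each had both the highest marker sum and the highest *Il1rl1* level of their group. Other libraries were not in the same order. In ∆*Firre*, replicate 9 had 3288 TPM of the markers and 9.89 TPM of *Il1rl1*, and replicate 11 had 3041 and 16.3 TPM. Among the rescue libraries, whose sums were all far under those of the other groups, replicate 2 had the highest marker sum and the lowest *Il1rl1* level. The part of these cells in the fall of *Il1rl1* was not tested.

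**Figure D4:**
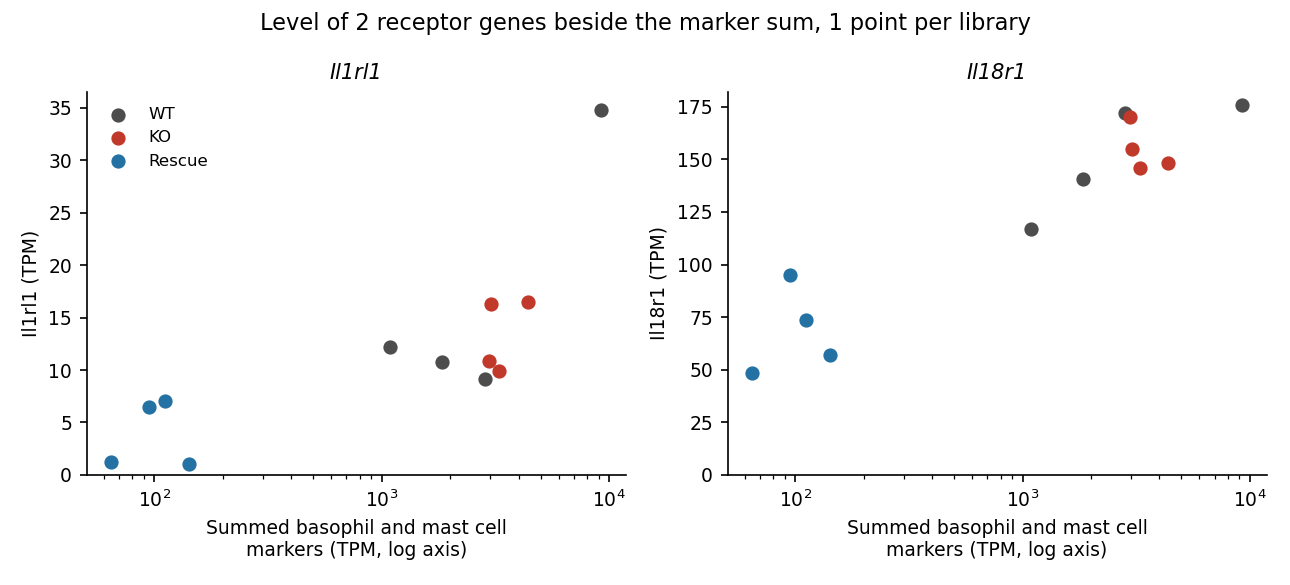
Level of *Il1rl1* (left) and *Il18r1* (right) in TPM on the vertical axes against the summed level of 10 basophil and mast cell markers on the log horizontal axis, 1 point per library colored by group (KO is ∆*Firre*). The rescue points lie at 64.5 to 142.5 TPM of the markers and the others at 1084 to 9241 TPM, with WT replicate 6 at the upper right of the left panel.

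B lineage markers went the other way, with 8 of 10 higher and 1 lower in both comparisons, and their sum was 272 to 499 TPM in WT, 351 to 450.5 in ∆*Firre*, and 958 to 1484 TPM in *Firre* rescue. The CLP list had 2 genes higher in each comparison, *Ly6d* (log2 fold change 1.36 against ∆*Firre* and 1.24 against WT) and *Rag1* (0.73 and 0.85). It had 2 lower, *Kit* (−0.49 and −0.40) and *Cd34* (−0.30 and −0.33). The sum of the CLP list was 6449 to 9038, 7560 to 7838, and 9051 to 9889 TPM in WT, ∆*Firre*, and *Firre* rescue. T cell markers had 2 of 6 lower in each comparison, with sums of 69.6 to 91.1, 66.7 to 75.5, and 59.8 to 81.5 TPM that overlapped between the groups. Plasma cell markers summed to 880.1 to 1637, 1621 to 3428, and 307 to 530.1 TPM, and of the 8 tested 4 fell and 2 rose against ∆*Firre* and 3 fell and 1 rose against WT. Of 9 eosinophil markers 2 and 1 fell, of 10 macrophage, monocyte, and neutrophil markers 3 fell in each comparison, and of 7 plasmacytoid dendritic cell markers 3 rose and 2 fell against ∆*Firre* and 1 rose and 1 fell against WT. No gene of these lists was called between ∆*Firre* and WT, and the part of these cells in the changes of the 9 genes was not tested.

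Within groups, some of the 9 genes varied together from mouse to mouse. After the mean of each group was taken away, Pearson's r over the 12 libraries on the log2(TPM + 1) scale was 0.766 between *Gata3* and *Il2ra*, 0.744 between *Gata3* and *Rora*, 0.730 between *Rora* and *Zbtb16*, and 0.728 between *Gata3* and *Zbtb16*. *Il1rl1* had an r of 0.102 to *Gata3*, 0.085 to *Rora*, −0.13 to *Zbtb16*, and 0.561 to *Il2ra*, and its highest value among the 9 was 0.675, to its neighbor *Il18r1*. These are descriptions, with no test, and each library gives all of these genes with one depth and one mixture of cells, both of which differ between libraries.

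Over all tested genes with a name, the pattern most like that of each gene was again read from Pearson's r over the 12 libraries, which here also holds the difference between the groups. For the transcription factors it was *Klhl24* for *Gata3* (0.959), *Trbc1*, a T cell receptor constant region gene, for *Rora* (0.969), *Foxred1* for *Nfil3* (0.950), *Tcf7* for *Zbtb16* (0.898), and *Mctp1* for *Tox* (0.929). For the receptors it was *P2rx1* for *Il1rl1* (0.968), *Tax1bp1* for *Il18r1* (0.984), *Ppp3cb* for *Il2ra* (0.926), and *Atad1* for *Icos* (0.908). With the group means taken away, *Tcf7*, which encodes the lymphoid factor TCF-1, was still the most similar gene to *Zbtb16* (0.860). The most similar genes were then *Stx17* for *Gata3* (0.945), *Gm7117* for *Rora* (0.914), *Snora47* for *Il1rl1* (0.941), *Plk2* for *Icos* (0.925), and *Dnahc8* for *Il18r1* (0.934).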

How the data were processed

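CLPs (Lin- Sca1lo cKitlo IL7Rα+) were sorted by flow cytometry and sequenced as poly(A)+ RNA, paired-end. The authors trimmed reads with cutadapt, aligned them to mm10 with TopHat2 2.1.1, used featureCounts with the Gencode annotation for read counts by gene, and deposited these as TPM, that is, per length of the gene and with the same sum in every library. TPM hold no depth, so whole reads were worked out from the steps between low values. For 98.8% of the tested genes this gave whole reads in every library (tolerance 0.02). They were used for depth and for 1 alternative, and cover counting error only.

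Values as log2(TPM + 1) were fitted with limma 3.58.1 in R 4.3.3 (mean-variance trend, 3 groups in one fit, mean TPM of at least 1), two-sided, with Benjamini-Hochberg adjustment over 14479 genes and calls at 0.1. P-values set the difference of group means against the spread between libraries within groups. The rescue libraries have a library number range of their own, so that spread holds no difference between that range and the others. Marker sums and correlations used Python 3.11.15 with pandas 2.3.3. The fit was tested on simulated data, and the outcome is not given here. The 9 genes and the other lists were chosen with earlier results of these data known. Other genes were named by rule: up to 3 called genes of largest change per list and comparison (for marker lists, those of basophils and mast cells, and *Bcl11b* of the T cell list), the IL-1 receptor cluster, and the most similar genes. Other genes named for a check of the cells (*Il7r*, *Flt3*, *Dntt*, *Cd3d*, *Cd3e*, *Cd3g*, *Cd4*, *Zap70*, *Lat*, *Gata2*, *Il5*, *Il13*, *Csf2*, *Il33*) fell outside it and were chosen after their values were seen. The same holds for genes named to complete a count (*Crlf2*, *Ly6d*, *Rag1*, *Kit*, *Cd34*) and for genes listed at 0 in all libraries (*Il9*, *Areg*, *Il22*, *Il17a*, *Cma1*). 1 more gene of the same set is not reported here. Positions and promoters are from RefSeq, GRCm38.p6, the build of the alignment. Alternatives were other pseudocounts, filters, scalings, trends, thresholds, blocks, groups, and libraries.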

Additional observations from a re-analysis of the deposited data

Results flagged for a closer look

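In 96 sets of 4 libraries (33 genes, 1 group each), a value stood apart from the other 3 in 5, where chance alone gives about 4.8 at a rate of 1 in 20. Among the 9 ILC2 genes this was *Nfil3* in WT replicate 10, at 5.78 on the log2(TPM + 1) scale (53.9 TPM) beside 63.6 to 65.5 TPM in the other WT libraries. *Il9r* in rescue replicate 4 was at 2.15 (3.43 TPM) beside 7.62 to 8.79 TPM. *Prss34* in ∆*Firre* replicate 8 was at 10.92 (1939 TPM) beside 1372 to 1413 TPM. In rescue replicate 2, *Ms4a2* was at 0.17 and *Fcer1a* at 2.83, where the other 3 rescue libraries were at 0.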

How the results depend on the processing

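Between ∆*Firre* and WT, 0 of the 9 genes were called under every setting tried, though *Il2ra* was not tested with the filter of a mean of at least 5 TPM. DESeq2, with which the study reported *Icos* as changed, was not among these settings. The number of all genes called, 3, was 6 with no filter (25277 genes tested), 1 with only those 2 groups in the fit, and 1 with the library number range as a block. It was 0 after correction for GC content, with limma-voom, and within either library number range. At an unadjusted p under 0.05 there were 505 of 11713 genes after the GC correction and 362 of 14304 with limma-voom, beside 767 of 14479 in the main fit. These gene sets differ. With 1 library left out it ran from 1 to 5 (1 without ∆*Firre* replicate 9 or 11, 5 without replicate 12). Signs that turned there were those of estimates near 0. *Gata3* was −0.12 in library number range 1 and −0.067 to 0.22 with 1 library left out. *Rora* was −0.052 after the GC correction, −0.20 in range 1, and −0.094 to 0.19 with 1 library left out. *Il1rl1* was 0.59 in range 1 and −0.33 to 0.27, and *Nfil3* −0.21 to 0.041 with 1 library left out. *Zbtb16* was 0.000193 with limma-voom, 0.43 in range 2, and −0.28 to 0.21 with 1 library left out. *Tox* was 0.029 with the median ratio, 0.038 with quantile normalization, 0.050 with limma-voom, 0.37 in range 2, and −0.16 to 0.097 with 1 library left out. *Il18r1* was −0.026 after the GC correction and −0.066 to 0.13 with 1 library left out.

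Of the comparisons with *Firre* rescue, the count against ∆*Firre*, 4043, was 2682 at an adjusted p of 0.05, 1913 after the GC correction, and 0 with the empirical null (421 at an unadjusted p under 0.05), and 2820 to 4460 with 1 library left out. The GC correction covered only the 11713 tested genes with a GC content, so its counts differ in gene set as well as in correction. The count against WT, 3512, was 2263 with 2 groups in the fit and 0 with the empirical null (470 at an unadjusted p under 0.05). Of the 9 genes, 6 and 5 called became 0 and 0 with the empirical null, which cannot decide whether they changed. Otherwise the numbers stayed from 5 to 8 and from 4 to 6. Higher genes made up a share of the calls that went from 30.7% to 50.2% against ∆*Firre* and from 19.9% to 50.6% against WT with the median ratio. *Icos* against WT was 0.024 with the median ratio, 0.030 with quantile normalization, and 0.0030 after the GC correction. *Il1r2* against WT was −0.70 to 0.010 with 1 library left out (above 0 without rescue replicate 4), and *Il1rl2* against ∆*Firre* was 0.17 with quantile normalization. *Rxrg*, *Pdcd1*, *Nmur1*, and *Il4* each lost a call with quantile normalization or without the filter, and *Il2rg* lost its call against WT with the median ratio. The cause was not tested. The GC correction, limma-voom, the empirical null, and the fits within library number ranges were chosen after seeing the data.

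WT and ∆*Firre* libraries share the replicate numbers 8 and 11, and all of these libraries are in library number range 1. Their deviations from the group means correlated at −0.033 and −0.041 within the pairs, so no pairing by number showed. Whether they share more than the number and the range was not tested. With a replicate block, 3, 4024, and 3511 genes were called and the calls among the 9 genes numbered 0, 6, and 5.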
